A study of Mus musculus with 10 samples.

Results

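*Lhx2*, *Lhx9*, *Barhl1* and *Barhl2*, the homeobox genes of the dorsalmost spinal interneuron class dI1, were followed through bulk RNA-seq of the embryonic mouse lumbar cord. They were found by matching the Ensembl identifiers of the count table to GENCODE gene names, which gave 4 of 54146 genes. The question was whether the genotype changed them together, and whether the *Barhl* genes followed *Lhx2* or *Lhx9* from embryo to embryo. The lumbar cord, with its dorsal root ganglia left on, was taken from 10 single embryos at E12.5, 5 controls and 5 embryos labelled *Dot1l*-cKO. The embryos labelled *Dot1l*-cKO carried the Wnt1cre2 transgene (line B6.Cg-E2f1Tg(Wnt1-cre)2Sor/J) on 1 chromosome and 2 floxed alleles of *Dot1l*, the methyltransferase of lysine 79 of histone H3. They are called cKO embryos below, by their label. No control carried the transgene. In litter 1 the 3 controls had 2 floxed alleles, as the 3 cKO embryos did, and in litter 2 the 2 controls had 1 floxed allele beside 2 cKO embryos. In this model Cre is active mainly in dorsal neural tube and neural crest, so ventral cells in the tissue may keep *Dot1l*. Embryos are numbered only to tell them apart.

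Neurons of the dI1 class are born next to the roof plate from progenitors that express the proneural factor *Atoh1*, and many of them send axons across the midline. *Lhx2* and *Lhx9* are LIM homeodomain transcription factors that are shared by young dI1 neurons and later mark different subsets of them. In these neurons they are known to support expression of *Robo3*, a receptor needed for midline crossing. *Barhl1* and *Barhl2*, mammalian relatives of the Drosophila BarH genes, are homeodomain factors downstream of *Atoh1* that take part in the identity of commissural neurons. Messenger RNA of the whole tissue cannot tell fewer dI1 neurons from less RNA of a gene in each neuron.

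The 4 genes form 2 paralogous pairs, and the homeobox, the stretch that encodes the DNA-binding homeodomain, is a part that paralogs share closely. It is shown for each gene as 180 bases of the coding strand from GENCODE transcripts on GRCm38 (mm10), with capitals at the positions where a gene differs from its own paralog. Homeoboxes were placed by the conserved codons of the third helix.

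Lhx2: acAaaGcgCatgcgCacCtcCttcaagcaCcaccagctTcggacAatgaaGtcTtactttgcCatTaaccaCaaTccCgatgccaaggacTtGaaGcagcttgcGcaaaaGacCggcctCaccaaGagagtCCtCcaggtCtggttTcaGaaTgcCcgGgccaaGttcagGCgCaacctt
Lhx9: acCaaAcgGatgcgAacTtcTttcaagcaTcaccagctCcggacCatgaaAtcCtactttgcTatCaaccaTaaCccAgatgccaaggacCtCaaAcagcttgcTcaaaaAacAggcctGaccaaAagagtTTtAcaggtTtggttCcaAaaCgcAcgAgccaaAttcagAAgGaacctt
Barhl1: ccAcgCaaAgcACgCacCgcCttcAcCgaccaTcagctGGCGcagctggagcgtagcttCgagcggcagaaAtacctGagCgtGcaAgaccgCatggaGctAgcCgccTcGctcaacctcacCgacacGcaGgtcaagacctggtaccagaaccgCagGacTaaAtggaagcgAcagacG
Barhl2: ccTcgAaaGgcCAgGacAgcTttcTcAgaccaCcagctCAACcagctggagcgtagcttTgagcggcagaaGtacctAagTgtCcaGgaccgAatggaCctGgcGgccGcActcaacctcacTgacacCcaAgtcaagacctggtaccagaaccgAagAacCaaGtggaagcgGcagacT

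*Lhx2* and *Lhx9* had the same base at 143 of 180 positions (79.4%), and *Barhl1* and *Barhl2* at 144 (80.0%). Between an *Lhx* and a *Barhl* gene 75 to 87 positions were the same. The longest run without a difference was 12 bases in the *Lhx* pair and 23 bases in the *Barhl* pair, and no stretch of 75 bases of any transcript of the 4 genes occurred in a transcript of another gene. Reads of that length without a mismatch can therefore be assigned to 1 of the 4 genes. The *Lhx2* homeobox lies on the plus strand in exon 4 (chr2:38359966-38360103) and exon 5 (chr2:38368842-38368883) of the transcript used. That of *Lhx9* lies on the minus strand in exon 4 (chr1:138832702-138832839) and exon 5 (chr1:138831583-138831624). In *Barhl1*, on the minus strand, the homeobox is split over exon 2 (chr2:28911342-28911499) and exon 3 (chr2:28909901-28909922). *Barhl2*, also on the minus strand, has it in exon 2 (chr5:106455450-106455607) and exon 3 (chr5:106453648-106453669). The *Lhx* homeoboxes are thus split after 138 bases and the *Barhl* homeoboxes after 158.

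The genes themselves span chr2:38339281-38369733 (*Lhx2*), chr1:138825186-138848577 (*Lhx9*), chr2:28907679-28916668 (*Barhl1*) and chr5:106452523-106458166 (*Barhl2*). *Lhx2* overlaps the annotated genes *Gm13584* and *Gm27197* on the other strand, and the counting is described only as the default of the snakePipes workflow, with its strand setting not spelled out in the sources used here. The search for shared stretches of 75 bases covered both strands, and transcripts of these genes shared none with *Lhx2*. Guanine and cytosine made up 58.5% of *Lhx2* exon sequence, 60.6% of *Barhl1* and 54.3% of *Barhl2*, but 42.0% of *Lhx9*, a difference that returns below.

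Total counts on genes lay between 40949585 and 61194291 in controls and between 54870771 and 68928443 in the cKO embryos. *Dot1l* itself was at 87.6 to 107 CPM (counts scaled to a TMM-normalized library size) in controls and 97.8 to 112 in the cKO embryos (log2 fold change 0.17, adjusted p = 0.128, edgeR). Counts over the whole gene therefore do not check the genotype. Markers of neurons, progenitors, dorsal root ganglia and mesenchyme were all detected, as the dissection implies. In litter 2 the 2 cKO embryos had Y-linked gene sums of 156 to 172 CPM, against at most 1.16 in the other 8, so sex and genotype cannot be told apart in litter 2.

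All 4 genes were expressed at a low to moderate level, with 356 to 1024 reads per embryo. Per kilobase of exon, controls had 6.51 ± 1.45 CPM of *Barhl2* (SD, n = 5), 3.00 ± 0.56 of *Barhl1*, 2.03 ± 0.27 of *Lhx2* and 1.28 ± 0.45 of *Lhx9*. *Barhl2* lay above *Barhl1* without overlap of embryos (5.18 to 8.08 against 2.23 to 3.57 CPM per kilobase). *Barhl1* and *Lhx2* overlapped (*Lhx2* reached 2.48), and so did *Lhx2* and *Lhx9* (from 1.82 and up to 1.83 CPM per kilobase). In the cKO embryos *Barhl2* and *Barhl1* did overlap (from 3.97 and up to 4.18 CPM per kilobase), and the means had the same order, with 5.52 ± 1.40 for *Barhl2*, 3.31 ± 0.84 for *Barhl1*, 1.55 ± 0.28 for *Lhx2* and 1.14 ± 0.34 for *Lhx9*. The exon length of *Lhx9*, 9494 bases over all its transcripts, enters its value and is more than that of the other 3 genes (2314 to 4393 bases).

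*Lhx2* had 8.15, 8.58 and 7.99 CPM in the controls of litter 1 and 5.93, 7.41 and 5.25 in its cKO embryos. In litter 2 its controls had 9.07 and 10.9 CPM, and the cKO embryos had 8.25 and 7.27. Within each litter every control lay above every cKO embryo, although the groups of 5 overlapped across litters. Such a separation in both litters towards lower levels was found for 4.21% of the 18901 genes tested.

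*Lhx9* had 9.56, 9.41 and 8.13 CPM in the controls of litter 1 and 7.79, 9.04 and 8.61 in the cKO embryos, with overlap. In litter 2 it stood at 16.1 and 17.3 CPM in controls and at 14.7 and 14.0 in the cKO embryos. The step between litters was the main feature of *Lhx9*: its lowest embryo of litter 2 was above its highest of litter 1.

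*Barhl1* had 8.71, 11.2 and 13.9 CPM in the controls of litter 1 and 11.2, 14.1 and 8.09 in the cKO embryos, 2 sets that spanned nearly the same range. In litter 2 its controls had 11.0 and 13.7 CPM and the cKO embryos 15.0 and 16.3, the only case among the 4 genes in which the cKO embryos of a litter were all higher.

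*Barhl2* had 12.0, 13.7 and 12.3 CPM in the controls of litter 1 and 10.5, 12.0 and 9.19 in the cKO embryos, which overlapped by 1 embryo. Its litter 2 controls had 18.7 and 18.7 CPM, above the 15.1 and 17.0 of the cKO embryos. In litter 2 each of the 4 genes thus separated the genotypes, which 52.4% of the tested genes did with 2 embryos against 2 (28% lower and 24.4% higher). No member separated the groups of 5 (1.92% of genes did).

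**Figure D1:**
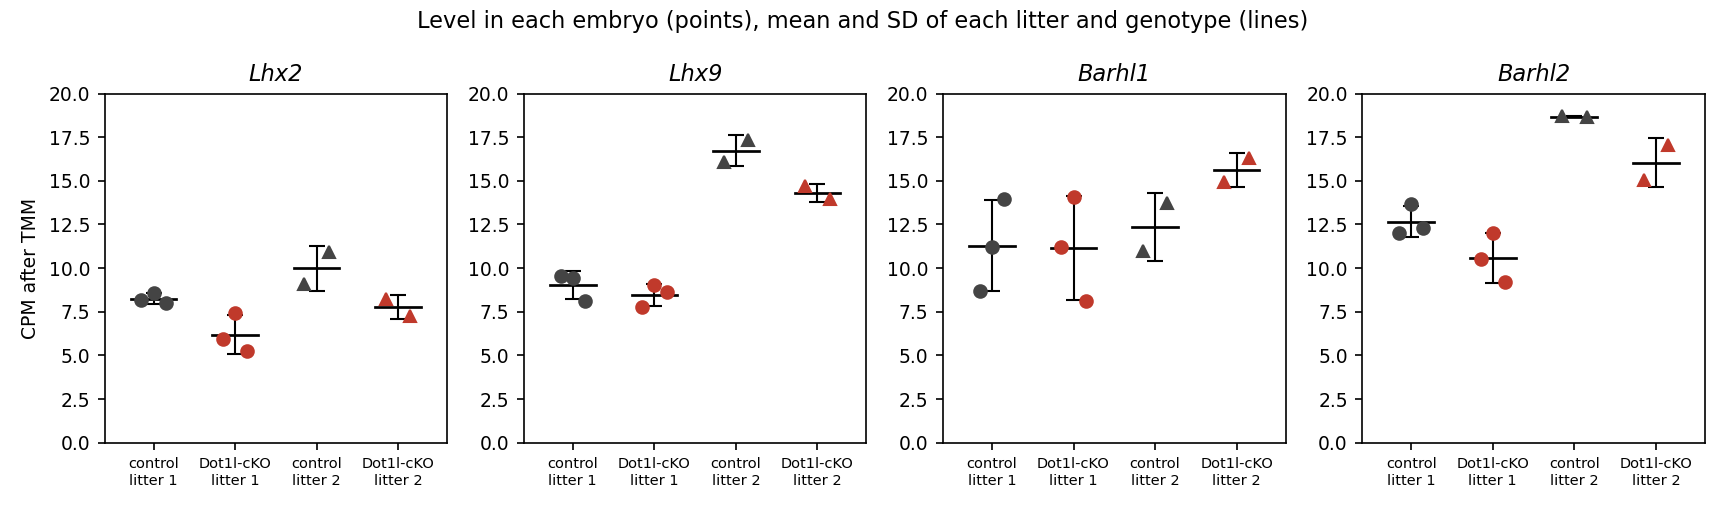
Level of *Lhx2*, *Lhx9*, *Barhl1* and *Barhl2* (y axis, CPM after TMM) in controls (grey) and cKO embryos (red) of litter 1 (circles, n = 3 each) and litter 2 (triangles, n = 2 each). Points are embryos, horizontal lines the mean and bars the SD. *Lhx2* was lower in the cKO embryos of both litters, and *Lhx9* and *Barhl2* stood higher in litter 2.

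None of the 4 genes passed an adjusted p of 0.05 between genotypes with both litters in the model, where 602 of 18901 genes (3.19%) did, 1.99% higher and 1.2% lower. *Lhx2* came closest, at a log2 fold change of -0.39 (standard error 0.10, adjusted p = 0.0505 by the quasi-likelihood F test of edgeR), a difference of -23.8%. It passed in DESeq2 on 35244 genes (adjusted p = 0.00763) and on the same 18901 genes (adjusted p = 0.00653), with all genes kept in edgeR (adjusted p = 0.00795), at a minimum of 10 counts in every embryo (adjusted p = 0.0487) and with robust dispersions (adjusted p = 0.0446), at log2 fold changes between -0.39 and -0.38. It missed with limma-voom, other scalings and a filter on the whole design, and without the litter term (adjusted p = 0.406). Without cKO embryo 2 of litter 1, the highest *Lhx2* among the cKO embryos of that litter, the edgeR value was -0.47 (adjusted p = 0.0301). With any other single embryo left out *Lhx2* did not pass (adjusted p between 0.0571 and 0.142, edgeR). *Barhl2* followed at -0.24 (standard error 0.08, adjusted p = 0.103, edgeR; 0.0532 in DESeq2, and 0.0474 in DESeq2 on the same 18901 genes), and *Lhx9* at -0.14 (standard error 0.08, adjusted p = 0.284, edgeR). *Barhl1* had the opposite sign, 0.12, with the widest standard error, 0.15 (adjusted p = 0.683, edgeR).

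Taken litter by litter, the *Lhx2* difference was nearly equal, -0.41 in litter 1 and -0.35 in litter 2 on the log2 scale. *Barhl2* had -0.25 and -0.21, and *Lhx9* -0.09 and -0.22. *Barhl1* moved from -0.02 in litter 1 to 0.35 in litter 2 (edgeR adjusted p = 0.129 in litter 2). No member passed in litter 1, where 0.0623% of genes did, or in litter 2, where 5.13% did. The interaction of litter and genotype, which tests the difference between litters itself, was 0.37 for *Barhl1* (standard error 0.30, adjusted p = 0.746, edgeR) and between -0.13 and 0.05 for the other 3 genes. It was called for 0.0106% of genes and for no member.

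For *Lhx9*, *Barhl1* and *Barhl2* the difference between litters was larger than that between genotypes. *Lhx9* was higher in litter 2 by a log2 fold change of 0.82 (standard error 0.08, adjusted p = 3.74e-06, edgeR), 1.77-fold. For *Barhl2* the step was 0.58 (standard error 0.08, adjusted p = 8.74e-05, edgeR), and for *Lhx2* 0.30 (standard error 0.10, adjusted p = 0.0325, edgeR). *Barhl1* had 0.32 (standard error 0.15, adjusted p = 0.129, edgeR). The 3 calls among 4 genes, all higher in litter 2, stand beside 36.4% of all genes called between litters and 17.6% called higher. Every embryo of litter 2 exceeded every embryo of litter 1 for *Lhx9* and *Barhl2*, which held for 12.3% of genes. The call of *Lhx2* was lost without any 1 of 6 embryos: its log2 fold change was 0.29 without cKO embryo 1, 0.30 without control 1, 0.25 without cKO embryo 3 and 0.29 without control 3 of litter 1, and 0.26 without either cKO embryo 1 or control 2 of litter 2 (adjusted p between 0.0556 and 0.112, edgeR). *Barhl1* was called without control 3 of litter 1 (0.41, adjusted p = 0.0380, edgeR).

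Among controls alone the litter difference was 0.88 for *Lhx9* (adjusted p = 0.000179, edgeR), 0.56 for *Barhl2* (adjusted p = 0.00157), 0.27 for *Lhx2* (adjusted p = 0.129) and 0.12 for *Barhl1* (adjusted p = 0.639). Litter and number of floxed alleles cannot be told apart in these controls. The 11 ganglion markers also differed between the litters: their summed level was 791 to 956 CPM in the controls of litter 1 and 363 to 395 in litter 2, with no marker at 0. In the cKO embryos it was 598 to 704 and 445 to 489 CPM. The 5 progenitor markers summed to 2059 to 2264 CPM in the controls of litter 1 and 2957 to 2989 in litter 2. Mesenchyme markers summed to 1722 to 2272 CPM in the controls of litter 1 and 1173 to 1354 in litter 2, and neuron markers to 5115 to 5320 and 4966 to 5052, whereas in the cKO embryos both sums overlapped between litters. The part of these differences in tissue makeup in the litter steps of *Lhx9* and *Barhl2* was not tested.

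**Figure D2:**
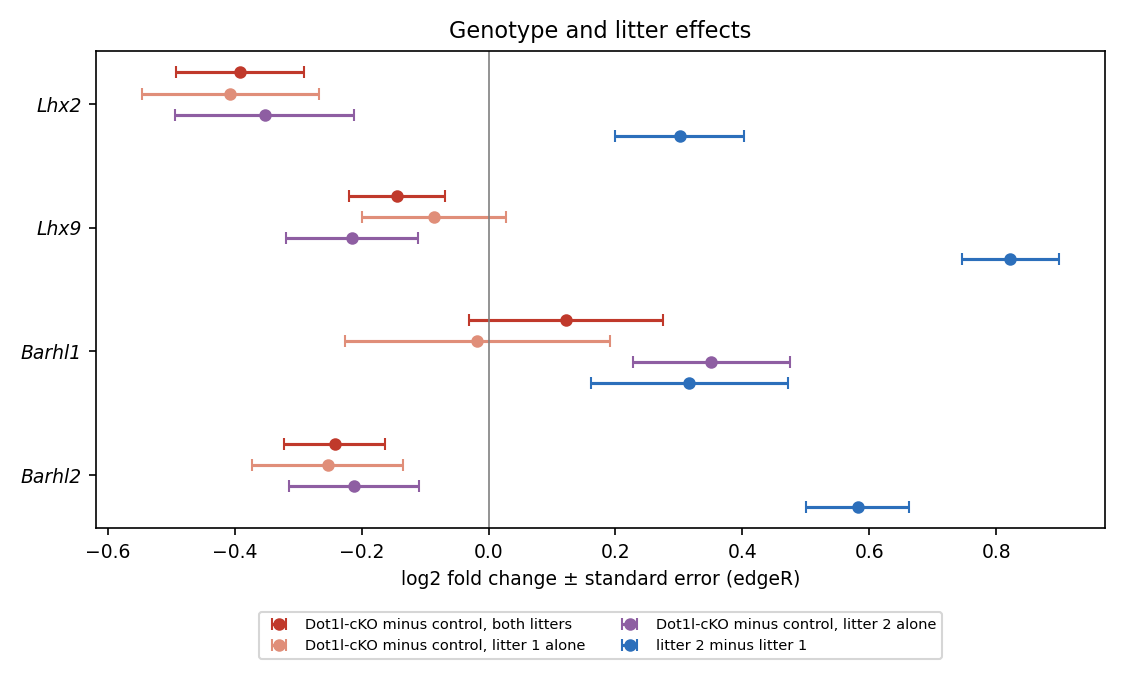
Log2 fold changes (x axis, edgeR, bars are the standard error) of the 4 genes for cKO embryos against controls in both litters, in litter 1 and in litter 2, and for litter 2 against litter 1. The genotype values of *Lhx2* nearly coincide (-0.39, -0.41 and -0.35), *Barhl1* spans -0.02 to 0.35, and the litter value of *Lhx9* is 0.82.

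Because library size cancels in a ratio of 2 genes of the same embryo, the pairs were also compared as log2 ratios of counts. *Lhx2* to *Lhx9* was -0.23, -0.13 and -0.03 in the controls of litter 1 and -0.39, -0.29 and -0.71 in the cKO embryos. In litter 2 it was -0.83 and -0.67 in controls and -0.83 and -0.94 in the cKO embryos. The *Lhx2* share of the pair was lower in every cKO embryo than in every control of its litter, narrowly so in litter 2. The mean difference was -0.26 (exact permutation of genotype within litters, two-sided p = 0.0167, the smallest that 120 arrangements allow, 0.1 after adjustment over 6 pairs).

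*Barhl1* to *Lhx2* was 0.10, 0.39 and 0.80 in the controls of litter 1 and 0.92, 0.92 and 0.62 in the cKO embryos. In litter 2 it was 0.28 and 0.33 in controls and 0.86 and 1.17 in the cKO embryos. One control of litter 1 lay within the range of the cKO embryos and the rest lay below it. The difference was 0.52, the widest of the 6 pairs (exact permutation p = 0.0333, adjusted 0.1).

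*Barhl1* to *Barhl2* differed by 0.37 (exact permutation p = 0.05, adjusted 0.1), with -0.46, -0.29 and 0.18 in the controls of litter 1 against 0.09, 0.22 and -0.18 in the cKO embryos. In litter 2 the same ratio was -0.76 and -0.44 in controls and -0.01 and -0.06 in the cKO embryos. The pairs that join *Barhl2* with an *Lhx* gene showed smaller differences. *Barhl2* to *Lhx2* differed by 0.15 (exact permutation p = 0.117, adjusted 0.175) and *Barhl2* to *Lhx9* by -0.10 (exact permutation p = 0.333, adjusted 0.333). *Barhl1* to *Lhx9* differed by 0.26, with overlap in litter 1 (exact permutation p = 0.283, adjusted 0.333). The GC content of the genes, described below, bears on these values. As differences of edgeR log2 fold changes with each embryo corrected for GC, without a test, *Barhl1* to *Barhl2* had 0.21 (0.36 uncorrected), *Lhx2* to *Lhx9* -0.40 (-0.25) and *Barhl1* to *Lhx9* 0.04 (0.27). *Barhl1* to *Lhx2* had 0.44 (0.51), *Barhl2* to *Lhx2* 0.23 (0.15) and *Barhl2* to *Lhx9* -0.17 (-0.10). No pair passed the adjustment, and with 120 arrangements over 6 pairs the least a single pair could reach is 0.1. In litter 1 alone, with 3 embryos against 3, the exact permutation test cannot go below p = 0.1.

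**Figure D3:**
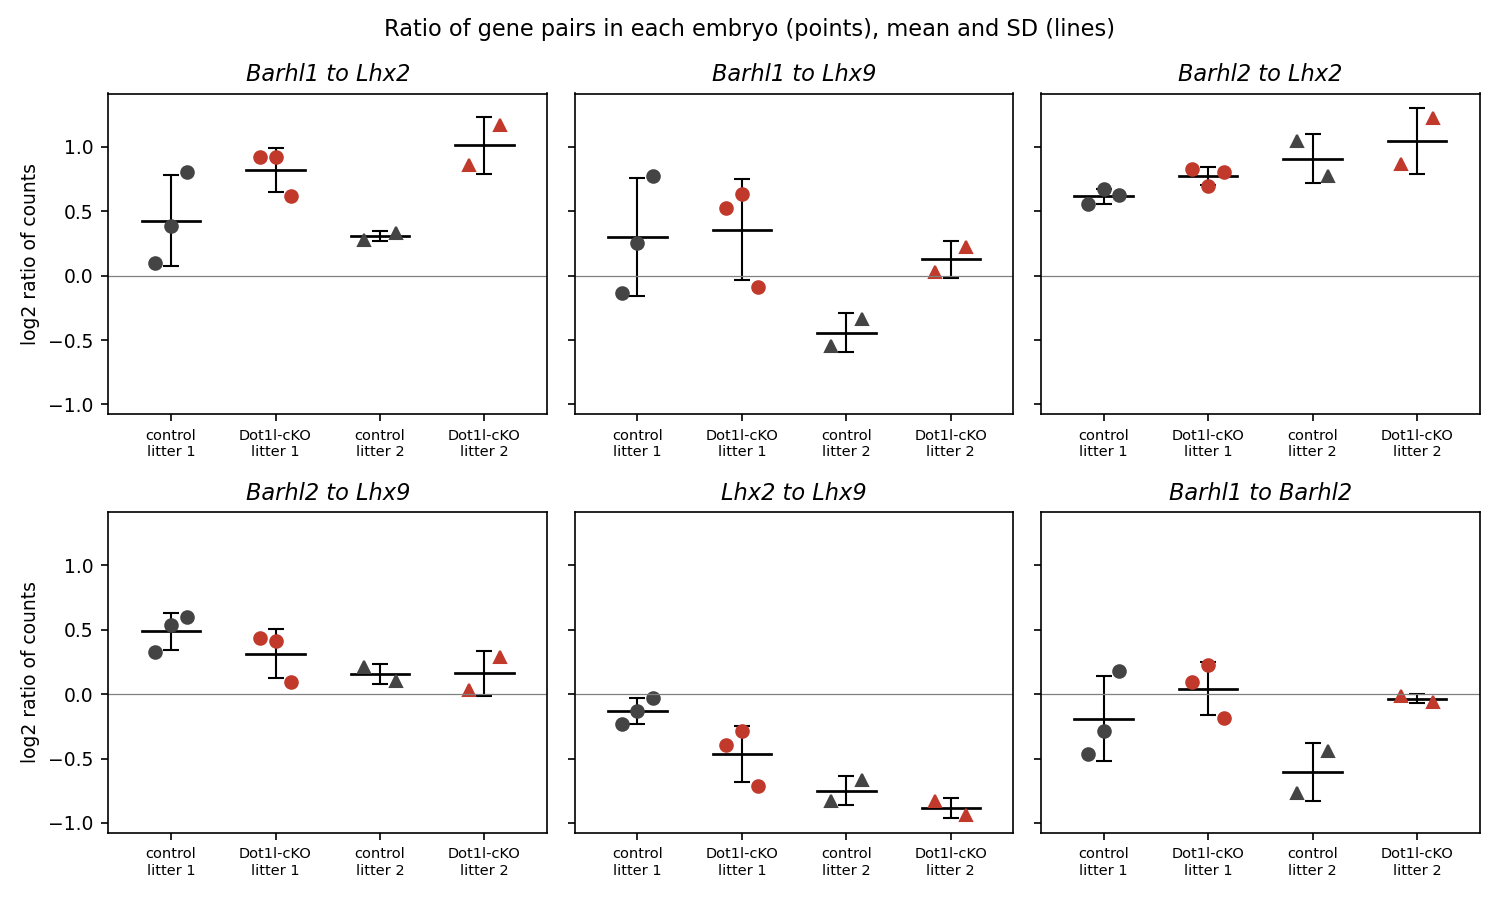
Log2 ratio of counts (y axis, pseudocount 0.5) for the 6 pairs of genes in controls (grey) and cKO embryos (red) of litter 1 (circles) and litter 2 (triangles). Points are embryos, lines and bars the mean and SD of each litter and genotype. *Barhl1* to *Lhx2* had a mean difference of 0.52 and *Lhx2* to *Lhx9* of -0.26 between genotypes.

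To ask which genes vary together once litter and genotype are taken out, each embryo's log2 CPM was expressed as its deviation from the mean of its litter and genotype. The SD of these deviations was 0.32 for *Barhl1*, 0.17 for *Lhx2*, 0.14 for *Barhl2* and 0.10 for *Lhx9*. Counting error alone would give 0.053 to 0.070. Of 1821 genes at a level similar to *Barhl1* (within 0.5 on the log2 scale), 97.0% had a smaller SD. *Barhl1* was the gene of the 4 that differed most among littermates of the same genotype, ranging from -0.42 in cKO embryo 3 to 0.37 in cKO embryo 2 of litter 1.

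*Barhl1* and *Lhx2* deviations had a Pearson's r of 0.64 over 10 embryos (exact permutation within litter and genotype, two-sided p = 0.146, adjusted 0.333) and a Spearman's rho of 0.55 (exact permutation p = 0.243, adjusted 0.486). With *Lhx9* the r of *Barhl1* was -0.23 (exact permutation p = 0.625, adjusted 0.75) and rho was -0.02 (exact permutation p = 0.972, adjusted 0.972). The difference of these r, 0.87, had an exact permutation p of 0.0347, adjusted to 0.0694 over both *Barhl* genes. Without any 1 embryo of litter 1 its exact permutation p was at least 0.0833. Without control 3 of that litter the difference was 0.61 (exact permutation p = 0.375, adjusted 0.458). The r of *Barhl1* was thus higher with *Lhx2* than with *Lhx9*, without passing the adjusted threshold. With neither litter nor genotype taken out both were about equal, 0.40 with *Lhx2* and 0.41 with *Lhx9*.

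*Barhl2* had an r of 0.62 with *Lhx2* (exact permutation p = 0.208, adjusted 0.333), with a rho of 0.30 (exact permutation p = 0.569, adjusted 0.808). Its r with *Lhx9* was 0.15 (exact permutation p = 0.75, adjusted 0.75), with a rho of 0.20 (exact permutation p = 0.674, adjusted 0.808). The difference for *Barhl2* was 0.47 (exact permutation p = 0.403, adjusted 0.403). With neither litter nor genotype taken out, *Barhl2* had an r of 0.82 with *Lhx2* (permutation p = 0.00329, adjusted 0.00987) and 0.91 with *Lhx9* (permutation p = 0.00039, adjusted 0.00234), both past the threshold, in a setting where the litters did not overlap for *Lhx9* and *Barhl2*. Between paralogs, r was 0.70 for *Barhl1* and *Barhl2* (exact permutation p = 0.125, adjusted 0.333), with a rho of 0.60 (exact permutation p = 0.174, adjusted 0.486). For *Lhx2* and *Lhx9* it was 0.52 (exact permutation p = 0.222, adjusted 0.333), with a rho of 0.66 (exact permutation p = 0.0694, adjusted 0.417). The smallest p that 144 arrangements allow is 0.00694.

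The 2 embryos farthest from the median of *Lhx2* were both cKO embryos of litter 1. cKO embryo 2 of litter 1 was above its group mean in all 4 genes (0.27 for *Lhx2*, 0.09 for *Lhx9*, 0.37 for *Barhl1* and 0.19 for *Barhl2*). cKO embryo 3 was below it in 3 (-0.22, -0.42 and -0.19 for *Lhx2*, *Barhl1* and *Barhl2*) and near it in *Lhx9* (0.02). Without both, which also narrows the range of *Lhx2*, the r with *Lhx2* was 0.17 for *Barhl1* (exact permutation p = 0.708, n = 8) and -0.15 for *Barhl2* (exact permutation p = 0.833, n = 8). For *Lhx9* the 2 farthest embryos were control 3 and cKO embryo 1 of litter 1, and without them r was 0.52 for *Barhl1* (exact permutation p = 0.5, n = 8) and 0.14 for *Barhl2* (exact permutation p = 1.0, n = 8). For *Lhx9* and *Lhx2* themselves r was then 0.84 (exact permutation p = 0.25, n = 8). For the *Barhl* genes with each other it was 0.26 without the 2 farthest (exact permutation p = 0.75, n = 8). The sign of *Barhl1* with *Lhx9* turned without control 3 of litter 1 alone (0.23), and that of *Barhl2* with *Lhx9* without cKO embryo 2 of litter 1 (-0.27).

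**Figure D4:**
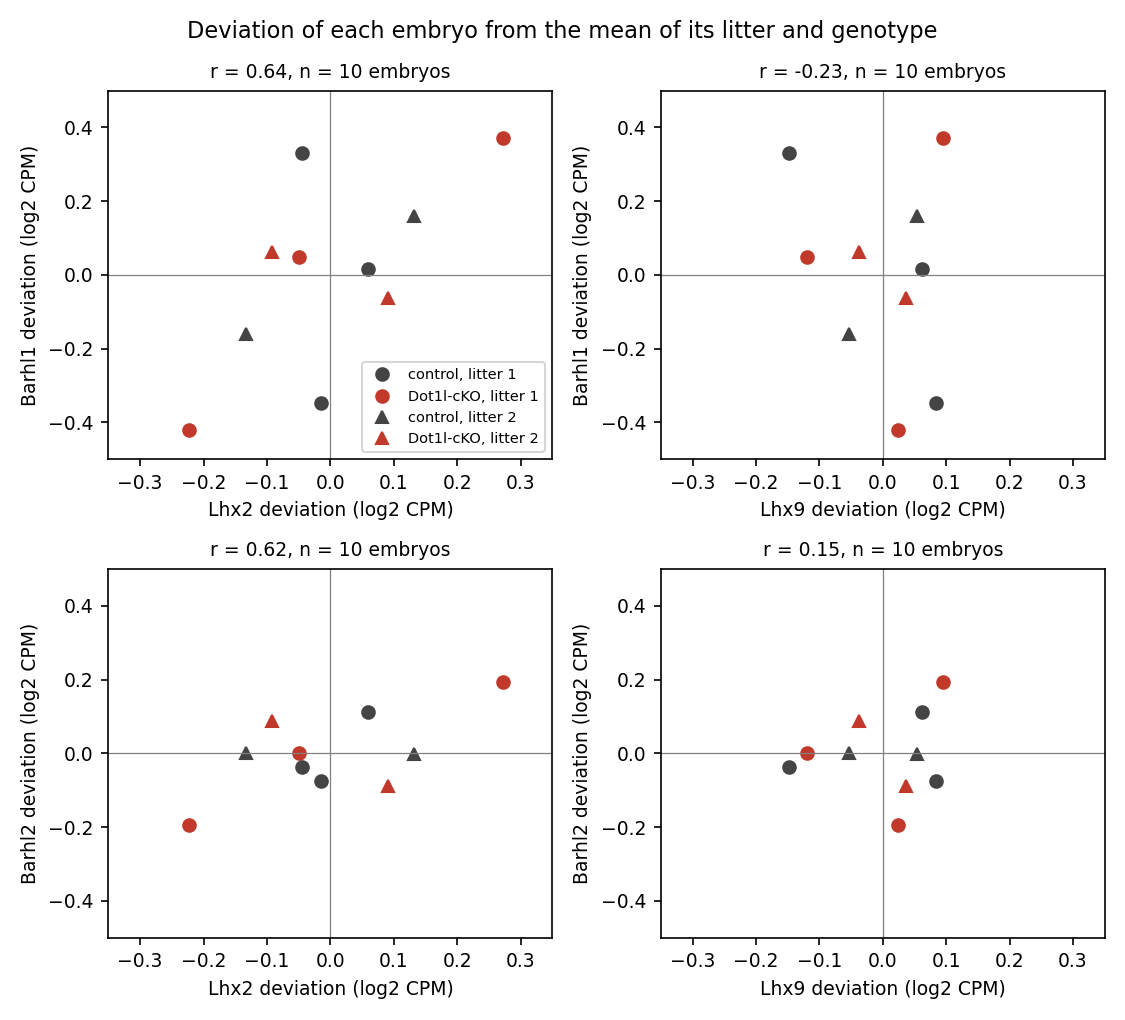
Deviation of *Barhl1* and *Barhl2* (y axes) against that of *Lhx2* and *Lhx9* (x axes), each in log2 CPM from the mean of the embryo's litter and genotype, for controls (grey) and cKO embryos (red) of litter 1 (circles) and litter 2 (triangles). The 2 red circles at the ends of the *Lhx2* axis (0.27 and -0.22) are the embryos without which r was 0.17 (*Barhl1*) and -0.15 (*Barhl2*).

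One measure of the libraries moved with these deviations. For each embryo, the log2 CPM of each gene with a mean above 1 was taken as a difference from that gene's mean over all 10 embryos, and the slope of these differences on transcript GC content was computed, in log2 units per 10 percentage points of GC. It was -0.02, 0.04 and -0.00 in the controls of litter 1 and 0.04, 0.12 and -0.04 in the cKO embryos. In litter 2 it was -0.13 in both controls, and 0.03 and 0.09 in the cKO embryos. cKO embryos 2 and 3 of litter 1, the 2 farthest in *Lhx2*, were also the highest and the lowest of their group in this slope.

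Within litter and genotype, the slope had an r over the 10 embryos of 0.99 with *Barhl2*, 0.74 with *Barhl1*, 0.65 with *Lhx2* and 0.12 with *Lhx9*, given as a description since gene and slope share the library. The GC-poor *Lhx9* had the lowest r of the 4. Among the other 3 the order did not follow GC content, since *Barhl2* had the highest r at 54.3% GC, the lowest of those 3. The part of GC content in these r was not tested. Of 13512 genes, 0.00740% had a higher r with the slope than *Barhl2*, 7.13% than *Barhl1* and 10.6% than *Lhx2*. Other measures moved with the 4 genes too: the summed CPM of the roof plate and *Atoh1* progenitor genes had an r of 0.94 with *Lhx2*, 0.69 with *Barhl2*, 0.67 with *Barhl1* and 0.41 with *Lhx9*, and the log2 total count had -0.74, -0.60, -0.36 and -0.54. The *Barhl* genes went more closely with other lists than with that one: *Barhl1* had an r of 0.86 with the sum of other LIM homeobox genes and 0.82 with that of dp2 to dI3 genes, and *Barhl2* had 0.80 and 0.81. *Lhx2* had -0.73 with the sum of neuron markers and 0.60 with that of mesenchyme markers. The summed genes of *Atoh1*-lineage neurons had lower r, 0.26 with *Lhx2*, -0.03 with *Lhx9*, 0.53 with *Barhl1* and 0.10 with *Barhl2*. For commissural guidance receptors the r was -0.15, -0.55, 0.40 and -0.06 in the same order. The part of these measures in the relations was not tested. With the GC slope taken out as well, r with *Lhx2* was 0.32 for *Barhl1* (exact permutation p = 0.347, adjusted 0.694) and -0.17 for *Barhl2* (exact permutation p = 0.694, adjusted 0.694), and r between the *Barhl* genes was -0.38 (exact permutation p = 0.583, adjusted 0.694). With *Lhx9*, r was then -0.47 for *Barhl1* (exact permutation p = 0.424, adjusted 0.694). The difference of *Barhl1* between its r with *Lhx2* and with *Lhx9* was 0.79 (exact permutation p = 0.0278, adjusted 0.0556).

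The slope also differed between genotypes in litter 2, so the edgeR test was repeated with each embryo corrected for GC content. *Lhx2* then passed, at -0.50 (adjusted p = 0.0199, edgeR). *Barhl2* had -0.27 (adjusted p = 0.0747, edgeR), *Lhx9* -0.10 and *Barhl1* -0.05, with a turned sign. Corrected litter steps were 0.78 for *Lhx9*, 0.60 for *Barhl2*, 0.42 for *Barhl1* (adjusted p = 0.0140, edgeR) and 0.37 for *Lhx2*. The correction thus moved the genotype values of *Barhl1* and *Lhx2* by more than their standard errors of 0.15 and 0.10, and left those of *Lhx9* and *Barhl2* within 0.05 of the uncorrected ones.

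**Figure D5:**
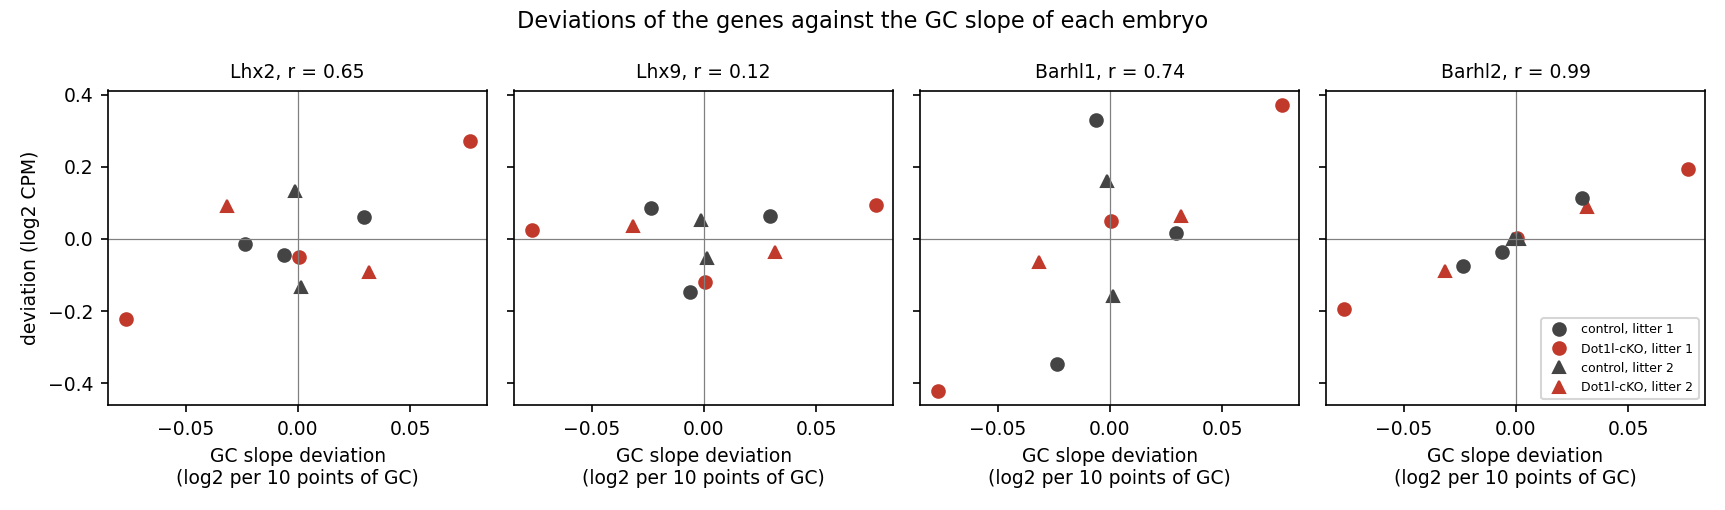
Deviation of each gene (y axis, log2 CPM from the mean of the embryo's litter and genotype) against the deviation of the embryo's GC slope (x axis, log2 per 10 percentage points of GC), for controls (grey) and cKO embryos (red) of litter 1 (circles) and litter 2 (triangles). *Barhl2* lies along a line (r = 0.99) and *Lhx9* does not (r = 0.12).

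The genes most like each member in these deviations were taken from 13511 genes with a mean log2 CPM of at least 1. For *Lhx2* they were *Pacsin3*, which encodes a protein of membrane curvature (r = 0.97), *Npepl1*, an aminopeptidase-like gene (0.96), and *Tars*, a threonyl-tRNA synthetase (0.96). For *Lhx9* they were *Rcn1*, a calcium-binding protein of the endoplasmic reticulum (0.96), *Isy1*, a splicing factor (0.96), and *Tmem98* (0.95). *Cherp* (0.99), *Gigyf1* (0.99) and *Zfp668* (0.99) were most like *Barhl1*, and *Zdhhc12* (0.99), *Nfkbib* (0.99) and *Dmac1* (0.99) most like *Barhl2*. Other members ranked far below these genes: 7.92% of genes were more like *Barhl1* than *Barhl2* was, and 10.1% more than *Lhx2*. For *Barhl2*, 8.42% of genes were more alike than *Barhl1* and 11.4% more than *Lhx2*. With *Lhx9* these shares were 66.4% for *Barhl1* and 34.3% for *Barhl2*. The genes named as most alike were picked as the highest of 13511 r over only 10 embryos, a choice that by itself favours high r. How high such r would be for unrelated genes was not tested.

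Genes around the dI1 class were read from lists, first the roof plate and *Atoh1* progenitors. Of 10 such genes 9 were tested and 0 passed between genotypes in edgeR's test (unadjusted p below 0.05 held for 4198 of all 18901 genes, called 602). Their median log2 fold change was -0.05, against -0.01 over all tested genes. *Atoh1* was at 2.07 ± 0.90 CPM in controls and 1.61 ± 0.84 in the cKO embryos (SD, n = 5 each; -0.40, standard error 0.23, adjusted p = 0.328, edgeR). *Msx2*, a target of BMP signalling, had -0.62 (adjusted p = 0.183, edgeR) and *Wnt1*, a roof plate ligand, 0.61 (adjusted p = 0.0721, edgeR). For *Wnt1* the value was 0.34 in litter 1 and 1.03 in litter 2. Between litters 6 of the 9 were called higher in litter 2 and 0 lower (17.6% and 18.7% of all genes), with a median of 0.70, and *Atoh1* had 1.07 (adjusted p = 0.00223, edgeR).

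Genes of *Atoh1*-lineage neurons, 9 in all, had 0 calls between genotypes (median -0.03). *Robo3* had 272 ± 32.4 CPM in controls and 284 ± 34.1 in the cKO embryos (SD, n = 5 each; 0.06, adjusted p = 0.708, edgeR). *Selenom* had the largest value, 0.53 (adjusted p = 0.0944, edgeR), and *Rassf4* -0.08 (adjusted p = 0.455, edgeR). Between litters 3 were called higher and 3 lower in litter 2, beside the same shares of all genes.

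Of 18 commissural guidance receptors 1 fell, *Cdon*, a cell surface coreceptor of Hedgehog (57.3 ± 13.7 CPM in controls and 47.5 ± 9.94 in the cKO embryos, SD, n = 5 each; -0.26, standard error 0.06, adjusted p = 0.0406, edgeR), and 0 rose. *Gas1*, another Hedgehog coreceptor, followed with -0.19 (adjusted p = 0.384, edgeR). Between genotypes 1.2% of all tested genes were called lower and 1.99% higher. The list's median was -0.06, and 9 receptors (of all genes 17.6%) were called higher and 3 (of all genes 18.7%) lower in litter 2.

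Among 10 other LIM homeobox genes, of which 9 were tested, *Lmx1b* rose (81.1 ± 30.9 to 100 ± 26.5 CPM, SD, n = 5 each; 0.36, standard error 0.08, adjusted p = 0.0313, edgeR) and 0 fell. Of all tested genes 1.99% were called higher. *Isl2* had 0.51 (adjusted p = 0.161, edgeR), with 0.12 in litter 1 and 1.15 in litter 2, and the list's median was 0.11. The 10 LIM cofactors, proteins that bind LIM domains or their partners, had 0 calls and a median of 0.06, with *Ssbp4* at 0.55 (adjusted p = 0.0541, edgeR) and *Lmo1* at 0.35 (adjusted p = 0.0819, edgeR). *Ssbp4* had 0.36 in litter 1 and 0.86 in litter 2.

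In the neighbouring dp2 to dI3 domains 1 of 10 genes rose, *Drgx*, a homeobox gene of dorsal horn and sensory neurons (52.0 ± 18.2 to 63.0 ± 14.8 CPM, SD, n = 5 each; 0.32, standard error 0.08, adjusted p = 0.0467, edgeR), and 0 fell. The share called higher among all tested genes was 1.99%. *Tlx3*, which marks dI3 and dI5 neurons, had 0.80 with a standard error of 0.26 (adjusted p = 0.0958, edgeR), 0.55 in litter 1 and 1.21 in litter 2. *Drgx* and *Lmx1b* were both lower in litter 2 (-0.81 and -0.91), opposite to *Lhx9* and *Barhl2*. Their genotype values were 0.17 and 0.20 in litter 1 and 0.58 and 0.61 in litter 2. *Drgx* is also expressed in ganglia, whose marker sum, given above, was lower in the cKO embryos of litter 1 and higher in those of litter 2 than in every control of the litter. The part of ganglion RNA in these values was not tested. Nor was that of the GC slope or of sex, both of which differed between the genotypes in litter 2.

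The remaining lists describe other cells of the dissected tissue. Their calls between genotypes stand beside 1.2% of all tested genes called lower and 1.99% called higher. Of 11 ganglion markers 1 fell between genotypes, *Runx3*, a factor of proprioceptive neurons (12.6 ± 3.93 to 7.57 ± 1.11 CPM, SD, n = 5 each; -0.71, standard error 0.18, adjusted p = 0.0480, edgeR), with -1.09 in litter 1 and -0.10 in litter 2. The ganglion list was mixed, with 5 positive and 6 negative log2 fold changes and a median of -0.09. Of 5 progenitor markers 1 fell, the proliferation marker *Mki67* (262 ± 104 to 194 ± 98.8 CPM, SD, n = 5 each; -0.49, standard error 0.11, adjusted p = 0.0377, edgeR), while *Hes5* had 0.20 (adjusted p = 0.32, edgeR). The 12 mesenchyme markers had 0 calls (median -0.10; *Tbx15* -0.56, adjusted p = 0.447; *Lum* -0.26, adjusted p = 0.124, edgeR). The 5 neuron markers also had 0 calls (median 0.08), led by *Snap25* at 0.11 and *Tubb3* at 0.08. Between litters 8 of 11 ganglion markers were lower and 5 of 5 progenitor markers higher in litter 2, where 18.7% of all genes were called lower and 17.6% higher.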

How the data were processed

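RNA of 10 lumbar spinal cords with ganglia was sequenced. The authors deposited a table of counts, not normalized, for 54146 genes having trimmed the reads (TrimGalore), aligned them to mm10 (STAR) and counted them on GENCODE genes (featureCounts), by the snakePipes defaults, with the strand setting not spelled out. Here 54079 identifiers matched GENCODE names on GRCm38, the same build. From the counts, edgeR 4.0.16 (R 4.3.3, TMM, default filter on the genotype group, litter in the model, quasi-likelihood test, two-sided, Benjamini-Hochberg at 0.05 over 18901 genes) was the main test. The standard error is the log2 fold change divided by the square root of F. DESeq2 1.42.0 and limma 3.58.1 were alternatives. Correlations used log2 CPM with a prior count of 2 and ratios a pseudocount of 0.5, with exact permutation (numpy 2.4.6).

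On simulated counts of 18669 genes, with 200 changed by 0.8 on the log2 scale, edgeR found 93.5% of the altered genes, and 1.58% of the calls fell on genes left unaltered. Replicate numbers are not shared between the groups. Each embryo is 1 sample, and intervals of counting error do not cover variation between embryos. The 4 genes and the lists were chosen with earlier results of these data known. Named genes were the 4 members, the 3 genes most like each, list genes with an adjusted p below 0.05, the 2 of each list with the largest absolute log2 fold change, and *Dot1l*; *Atoh1* and *Robo3*, named for their role, were added. A gene that this rule names is not reported here. The corrections for GC content, Spearman's rho a filter from the litter and genotype design and DESeq2 on the genes of the edgeR filter were added after the data were seen. Amino acid sequences and the genome sequence were not used here.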

Additional observations from a re-analysis of the deposited data

How the results depend on the processing

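Direction and side of the threshold are compared below with the values reported above, for the 4 genes, their correlations and their ratios. Leaving out 1 embryo gave genotype values of -0.47 to -0.33 for *Lhx2*, -0.19 to -0.12 for *Lhx9*, 0.03 to 0.24 for *Barhl1* and -0.30 to -0.19 for *Barhl2*, litter values of 0.25 to 0.37, 0.78 to 0.85, 0.21 to 0.42 and 0.54 to 0.63, and interactions of -0.08 to 0.20, -0.19 to -0.06, 0.18 to 0.57 and -0.05 to 0.14. That of *Lhx2* turned without cKO embryo 3 of litter 1 (-0.056) and cKO embryo 1 (-0.046) or control 1 (-0.083) of litter 2, and that of *Barhl2* without control 2 (-0.018) or cKO embryo 3 (-0.053) of litter 1 or cKO embryo 2 of litter 2 (-0.051). The litter call of *Lhx2* was lost at 0.29, 0.3002, 0.25, 0.29, 0.263 and 0.257 without the 6 embryos named above.

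The genotype value of *Lhx2* passed with DESeq2 (-0.39, also on the genes of the edgeR filter, where *Barhl2* passed at -0.24), without a filter (-0.38), at 10 counts in every embryo (-0.39), with robust dispersions (-0.39) and with the GC correction (-0.50). That of *Barhl1* turned with the GC correction (-0.055) and in litter 1 alone (-0.018). With the GC correction the interactions of *Lhx2* (-0.095) and *Barhl2* (-0.025) turned and *Barhl1* was called between litters (0.42), as it was without a filter (0.31). The litter value of *Lhx2* was not called in controls alone (0.27). The cause of these shifts was not tested. Genes called higher and lower between genotypes numbered 376 and 226, against 852 and 640 with DESeq2 on 35244 genes, 864 and 662 with DESeq2 on the 18901 genes tested in edgeR, 1346 and 855 without a filter, 214 and 145 with the GC correction, 482 and 173 with the library size alone, 1 and 11 in litter 1, and 747 and 217 in litter 2. Without the litter term edgeR called 0 and 0 (1867 at an unadjusted p under 0.05). Leaving out 1 embryo gave 31 to 972 higher and 17 to 422 lower genes. In litter 1 there were 68 and 40 without cKO embryo 1, 972 and 422 without cKO embryo 3, 42 and 23 without control 1, 185 and 153 without control 2, and 88 and 41 without control 3. In litter 2 there were 31 and 17 without cKO embryo 2, 61 and 36 without control 1, and 103 and 78 without control 2.

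Without 1 embryo, r ranged over 0.37 to 0.84 (*Barhl1* and *Lhx2*), -0.68 to 0.23 (*Barhl1* and *Lhx9*), 0.16 to 0.83 (*Barhl2* and *Lhx2*), -0.27 to 0.34 (*Barhl2* and *Lhx9*), 0.29 to 0.77 (*Lhx2* and *Lhx9*) and 0.43 to 0.91 (both *Barhl* genes). The difference of r was 0.59 to 1.05 for *Barhl1* and -0.029 to 0.59 for *Barhl2*, turned without cKO embryo 3 of litter 1. With only the litter taken out, r of *Barhl2* and *Lhx2* was 0.86 and the difference for *Barhl1* 0.56, both past the threshold, while r was 0.17 for *Barhl1* and *Lhx2* and 0.27 for the *Barhl* genes. With nothing taken out, where the litters did not overlap for *Lhx9* and *Barhl2* but did for *Lhx2* and *Barhl1*, r was 0.82 for *Barhl2* and *Lhx2* and 0.91 for *Barhl2* and *Lhx9*, both past the threshold, 0.40 for *Barhl1* and *Lhx2* and 0.41 for *Barhl1* and *Lhx9*. Without the 2 farthest embryos *Barhl1* and *Lhx9* had 0.52 and *Barhl2* and *Lhx2* -0.15. With the GC slope taken out *Barhl2* and *Lhx2* had -0.17, the *Barhl* genes -0.38, and the difference for *Barhl2* was -0.44.

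Ratios kept their direction without 1 embryo, over 0.44 to 0.64, 0.17 to 0.42, 0.09 to 0.21, -0.16 to -0.04, -0.30 to -0.18 and 0.29 to 0.48 in the order *Barhl1* to *Lhx2*, *Barhl1* to *Lhx9*, *Barhl2* to *Lhx2*, *Barhl2* to *Lhx9*, *Lhx2* to *Lhx9* and *Barhl1* to *Barhl2*. *Barhl2* to *Lhx9* was 0.0014 in litter 2. Single embryos could not be paired because the controls and the cKO embryos share no replicate number, so they were matched only by litter. Counting error had an SD of 0.053 to 0.070 on the log2 scale, and the part of depth in the deviations, with which the total count moved, was not tested.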
